A study of Mus musculus with 48 samples.

Results

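Beige and thermogenic genes were examined in inguinal subcutaneous white fat (iWAT, also called sWAT) of mice fed ad-lib (AL in the plots) or twice-a-night (TAN). The set was chosen by gene name, with earlier results of these data known. It held 10 genes, Ucp1, Cidea, Dio2, Ppargc1a, Prdm16, Cox7a1, Cox8b, Elovl3, Pm20d1 and Otop1, of 54532 genes in the count table. All 10 were among the 19977 genes that passed the filter on low counts, although Ucp1 was at 0 in 22 of 48 libraries and Elovl3 in 14. The mice were C57BL/6 by the labels (C57BL/6J in the study's methods), male, on regular chow and 8 months of age. Ad-lib mice had food at all times, and TAN mice were fed in an early and a late window of the dark phase for several months before collection. Lights were on from 8 AM to 8 PM. Each of the 12 groups of diet and labelled time (8 AM, 12 PM, 4 PM, 8 PM, 12 AM and 4 AM) held 4 libraries, and each library was a separate sample under the labels. The mice were housed in groups and no label ties a library to a cage or litter, so the p-values measure the spread between these samples.

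Beige adipocytes are fat cells of white depots that can turn on the program of brown fat under cold, beta-adrenergic drive or other stimuli. In that program, regulators such as Prdm16 and Ppargc1a act with nuclear receptors on genes for mitochondria, lipid handling and heat production, and Ucp1 lets protons leak across the inner mitochondrial membrane so that the energy is given off as heat. Inguinal fat is the mouse depot best known for this change. Dio2 makes the active thyroid hormone inside the cell, Pm20d1 is a secreted enzyme that joins fatty acids to amino acids, Cidea sits on lipid droplets, Elovl3 lengthens fatty acids, and Cox7a1 and Cox8b are subunits of cytochrome c oxidase that are high in brown fat and in muscle. Otop1 is a proton channel that was described as a marker of brown and beige fat.

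The promoters of 7 members were matched in RefSeq (build GRCm38.p6, 250 bases before to 50 after the start). Those of Cidea, Elovl3 and Pm20d1 were not matched. Sequences of 4 are shown. Of these, 3 hold a core of the cAMP response element (CRE), a kind of site through which beta-adrenergic signals can act. Whether these cores act in that way was not tested. Cox8b is shown because it was the member whose level followed that of Cidea most closely. Each sequence is written 5′ to 3′ on the strand of the gene, with matches to any of the motifs named below in capitals. The windows are chr8:83290098-83290397 on the plus strand for Ucp1, chr12:90738989-90739288 on the minus strand for Dio2, chr5:51567676-51567975 on the minus strand for Ppargc1a and chr7:140900397-140900696 on the minus strand for Cox8b.
Ucp1: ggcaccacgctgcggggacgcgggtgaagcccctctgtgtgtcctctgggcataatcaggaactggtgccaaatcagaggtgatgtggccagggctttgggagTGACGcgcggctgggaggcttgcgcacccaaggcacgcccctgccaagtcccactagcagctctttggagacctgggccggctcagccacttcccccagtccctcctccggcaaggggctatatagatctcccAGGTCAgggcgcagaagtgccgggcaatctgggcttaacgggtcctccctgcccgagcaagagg
Dio2: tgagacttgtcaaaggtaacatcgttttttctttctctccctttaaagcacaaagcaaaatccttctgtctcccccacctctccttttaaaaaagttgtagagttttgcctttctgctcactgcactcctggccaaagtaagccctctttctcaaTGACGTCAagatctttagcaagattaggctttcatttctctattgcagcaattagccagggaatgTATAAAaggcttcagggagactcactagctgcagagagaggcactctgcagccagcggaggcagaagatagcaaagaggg
Ppargc1a: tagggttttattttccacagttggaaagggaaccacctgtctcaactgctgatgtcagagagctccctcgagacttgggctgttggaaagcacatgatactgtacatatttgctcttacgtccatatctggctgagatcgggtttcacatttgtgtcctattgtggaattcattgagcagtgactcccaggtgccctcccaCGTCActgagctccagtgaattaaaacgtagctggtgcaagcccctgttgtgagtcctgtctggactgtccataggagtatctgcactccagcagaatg
Cox8b: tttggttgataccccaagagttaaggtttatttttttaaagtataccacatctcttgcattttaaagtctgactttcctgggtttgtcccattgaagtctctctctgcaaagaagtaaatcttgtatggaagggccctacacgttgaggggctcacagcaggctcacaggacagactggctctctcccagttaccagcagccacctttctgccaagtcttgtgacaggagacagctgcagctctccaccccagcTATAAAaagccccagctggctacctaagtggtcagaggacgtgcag

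Dio2 was the 1 member of 7 with a whole CRE (TGACGTCA), which began 95 bases before the start and was held by 1.79% of all 32851 promoters of the table. The CRE core (TGACG, which also lies within the whole CRE on both strands) stood in the promoters of Ucp1, Dio2 and Ppargc1a, against 20.8% of all promoters. A nuclear receptor core (AGGTCA) was found in that of Ucp1, 14 bases before the start, against 16.3% of all. The TATA box (TATAAA) was found in Dio2, 30 bases before the start, and in Cox8b, just after the start, against 13.6%. All motifs were searched on both strands. None of the 7 windows held the estrogen-related receptor element TCAAGGTCA (0.423% of all), DR1, the direct repeat of AGGTCA spaced by 1 base (0.0396%), the E-box CACGTG (7.15%) or the D-box TTATGTAA (0.938%). The element and DR1 both contain AGGTCA. A match is a run of letters and no evidence of binding.

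Libraries held 15636378 to 29913310 counts, and 14842 to 20342 genes with at least 5 counts. The series text calls the material a stromal fraction, but adipocyte marker genes were abundant in every library, with sums of 9085 to 67760 CPM (counts scaled to library size by TMM), so adipocyte RNA was present throughout. Lymphocyte marker sums were below 100 CPM in 10 libraries and reached 3097 CPM in others, and skeletal muscle marker sums were above 100 CPM in 17 libraries (8 ad-lib, 9 TAN). At 8 PM, TAN replicates 1 and 2 were low in both measures, with 14842 and 15399 detected genes and adipocyte sums of 13690 and 9085 CPM. Ad-lib replicate 1 at 8 PM also had a low adipocyte sum, 13140 CPM, with 19472 detected genes. The fits without those 2 TAN libraries kept that ad-lib library. In bulk tissue, fewer cells of a type and less RNA per cell cannot be told apart. The count table's times put the ad-lib peak of Dbp, a clock output gene, at 4 PM (102 ± 19.9 CPM, SD, n = 4) and that of Arntl at 8 AM (32.2 ± 9.59 CPM). A second list of per-library expression carries the same animal names under other times. Compared with that list, all 48 libraries were closest to the entry of the same name 12 h apart. The groups hold the same animals under either labelling, and times below are those of the count table.

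The members spanned a wide range of levels, and the classical marker of the set was near the limit of detection. Divided by gene length, Cox8b stood highest with 163 ± 74.1 CPM per kb (SD, n = 48 libraries) and Cidea next with 55.9 ± 35.3. Cox7a1 followed with 8.81 ± 6.40, Otop1 with 2.76 ± 1.66 and Ppargc1a with 1.99 ± 0.936. Prdm16 was at 0.976 ± 0.392, Pm20d1 at 0.666 ± 0.345 and Elovl3 at 0.492 ± 0.686 CPM per kb. Ucp1 with 0.287 ± 0.440 and Dio2 with 0.200 ± 0.160 were lowest. The steps from Cox8b to Cidea and from Cidea to Cox7a1 were larger than either gene's SD, and below Cox7a1 each pair of neighbours differed by less than the larger of their SDs, apart from Ppargc1a and Prdm16.

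Several near relatives of the members were more abundant than the members on the same per-length scale. Ucp2, a mitochondrial carrier of many cell types, was at 28.5 ± 15.2 CPM per kb and Ucp3, the muscle form, at 10.8 ± 5.09. Cidec, the lipid droplet protein of white fat, was at 841 ± 369 and so above Cidea. The widely expressed oxidase subunits Cox8a and Cox7a2 were at 985 ± 374 and 223 ± 87.3 CPM per kb, above Cox8b and Cox7a1. Ppargc1b, the relative of Ppargc1a, was lower than it at 0.727 ± 0.568 CPM per kb. Elovl5, Elovl1 and Elovl7, relatives of Elovl3 in the lengthening of fatty acids, were at 46.5, 18.0 and 0.619 CPM per kb. Mecom, the relative of Prdm16, was at 1.02 CPM per kb and Pm20d2, that of Pm20d1, at 3.14. Dio1, Dio3 and Cideb were at 0 in 32, 28 and 35 of 48 libraries, Otop3 had 3 counts in all, and Otop2 had 0 counts in all 48 libraries.

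**Figure D1:**
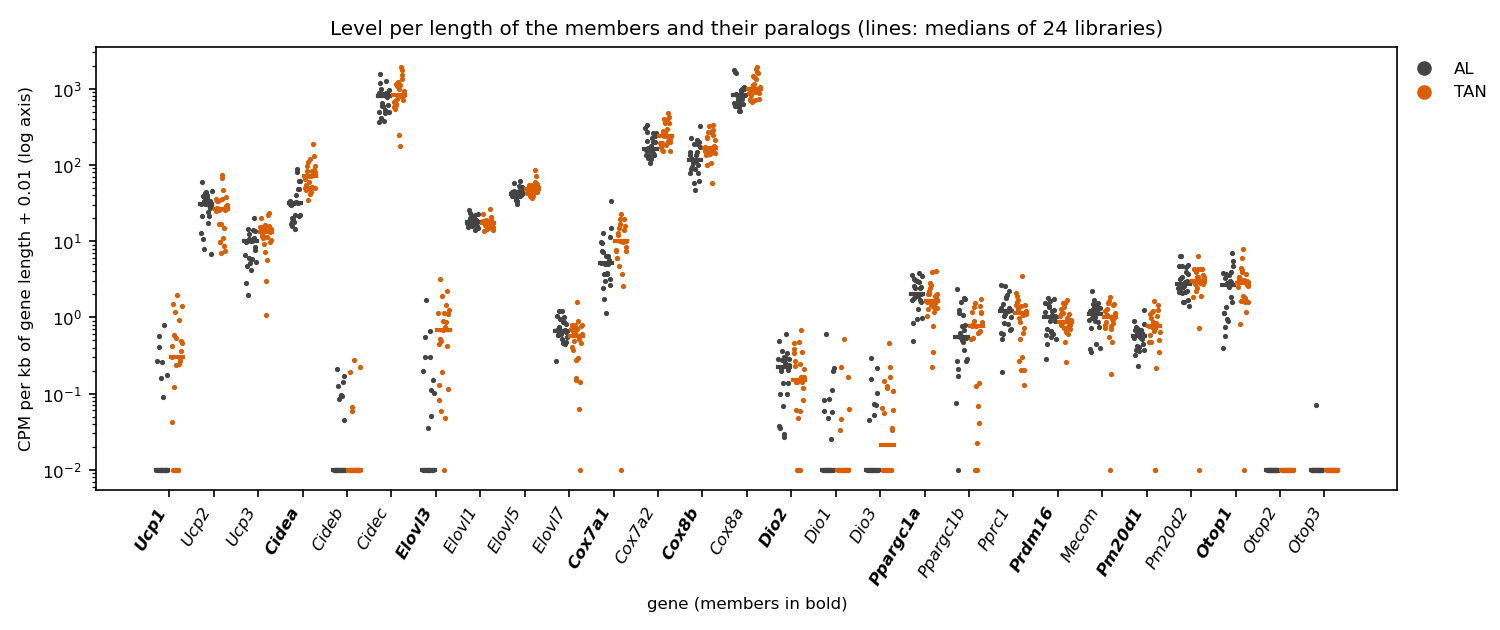
Level of the 10 members (bold) and of their paralogs in CPM per kb of gene length plus 0.01, on a log axis, with 1 point for each of 24 ad-lib (grey) and 24 TAN (orange) libraries and a line at the median. The medians in ad-lib and TAN are 117 and 168 CPM per kb for Cox8b, 31.3 and 71.5 for Cidea, and 0 and 0.290 for Ucp1.

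Ucp1 (chr8:83290352-83298452, plus strand), the uncoupling protein that defines thermogenic fat, was detected in 8 of 24 ad-lib libraries and 18 of 24 TAN libraries. Ad-lib libraries held 0 to 33 counts and 101 counts in sum, and TAN libraries 0 to 57 counts and 354 in sum. Libraries at 0 could hold up to 3 counts by the counting error, which came to 0.0919 to 0.217 CPM. At 8 AM the ad-lib libraries held 0, 9, 0 and 0 counts, and the TAN libraries 12, 1, 8 and 0. At 12 PM the counts were 0, 21, 13 and 0 in ad-lib and 52, 16, 5 and 45 in TAN. At 4 PM they were 0, 5, 0 and 11 in ad-lib and 0, 16, 8 and 57 in TAN. TAN libraries were thus detected more often at each of these times, and the groups overlapped at all of them.

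At 8 PM, Ucp1 had 0, 0, 0 and 3 counts in ad-lib and 0 counts in all 4 TAN libraries, each of which allows up to 3 counts (0.120 to 0.169 CPM). At 12 AM the counts were 33, 0, 0 and 0 in ad-lib and 9, 24, 8 and 6 in TAN, so in CPM the 1 ad-lib library with counts (1.29) lay within the TAN range (0.383 to 1.51). At 4 AM they were 0, 0, 0 and 6 in ad-lib and 17, 11, 45 and 14 in TAN, with every TAN library above every ad-lib library, which 1.91% of all genes showed at that time. The summed counts at 4 AM were 6 and 87, a ratio of 15.1 with a 95% counting interval of 6.65 to 42.2, and the exact permutation test of CPM gave p = 0.0286 (two-sided), the smallest that 4 against 4 libraries allow. The fitted difference of 3.86 ± 1.82 (log2, SE) had an adjusted p of 1.

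Over all times the mean level of Ucp1 was 0.180 ± 0.337 CPM in ad-lib and 0.758 ± 0.877 CPM in TAN (SD, n = 24 each), 4.21 times higher, and 16 of 24 TAN libraries were above the ad-lib mean of their time. The fit of 12 groups gave no usable estimate over the day, because all TAN libraries at 8 PM were at 0. A permutation test of the mean CPM difference that kept each library within its time gave p = 0.00095 (two-sided, 100000 draws). In an additive model of diet and time the difference was 1.77 on the log2 scale, with an adjusted p of 0.251 by edgeR's quasi-likelihood test, so Ucp1 did not pass when all 19977 genes were tested together. With limma voom in place of edgeR it passed (2.33, adjusted p = 0.0165). Both tests beside the fit of 12 groups were added after the data were seen.

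Cidea (chr18:67343564-67367794, plus strand), a lipid droplet protein that is high in brown fat, had the lowest adjusted p of the 10 members over the day. At 8 AM it stood at 35.8, 39.2, 19.3 and 34.8 CPM in ad-lib and at 77.2, 57.9, 54.8 and 62.7 CPM in TAN. At 12 PM ad-lib libraries were at 18.3, 20.9, 23.2 and 37.0 CPM and TAN libraries at 96.4, 113, 39.97 and 125 CPM. At 4 PM the values were 22.7, 37.2, 20.9 and 25.4 CPM in ad-lib and 57.6, 70.1, 84.2 and 139 CPM in TAN. At each of these 3 times all 4 TAN libraries were above all 4 ad-lib libraries, which 2.03%, 3.30% and 12.8% of all tested genes showed at 8 AM, 12 PM and 4 PM.

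The Cidea groups overlapped at the other times. At 8 PM ad-lib libraries were at 16.9, 46.9, 37.4 and 94.0 CPM and TAN libraries at 48.5, 51.7, 82.2 and 95.4 CPM. At 12 AM they were at 102, 55.5, 37.4 and 56.4 CPM in ad-lib and 60.6, 221, 97.4 and 150 CPM in TAN. At 4 AM they were at 24.9, 70.7, 26.0 and 71.4 CPM in ad-lib and 99.9, 58.6, 112 and 95.3 CPM in TAN. TAN means were above ad-lib means at all 6 times, and 22 of 24 TAN libraries were above the ad-lib mean of their time.

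Over the day, Cidea was at 40.6 ± 23.5 CPM in ad-lib and 89.6 ± 40.6 CPM in TAN (SD, n = 24 each), a fitted difference of 1.19 ± 0.17 (log2, SE) with an adjusted p of 1.4e-05 in edgeR's quasi-likelihood test, where p was adjusted by Benjamini-Hochberg over all 19977 genes, as throughout. By time, it passed at 4 PM (1.72 ± 0.42, adjusted p = 0.0119), where the call at a single time required an adjusted p under 0.05 and a log2 difference beyond 1. At 12 PM it had an adjusted p of 0.0563 with a larger fitted difference, 1.92 ± 0.43. At 8 AM, 12 AM, 4 AM and 8 PM the differences were 0.97, 1.07, 0.92 and 0.51, with unadjusted p of 0.0251, 0.0136, 0.0317 and 0.224, and did not pass. The test of unequal TAN effects across times gave an adjusted p of 0.334.

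The level of Cidea over the day was examined beside markers of other cells. Over the day, 0 of 12 lymphocyte and 0 of 11 muscle markers tested had a positive fitted difference (medians −0.67 and −1.91), and 9 of 10 adipocyte markers had one (median 0.26). Of all 19977 tested genes, 7845 had a positive one (median −0.08). Cidea remained higher in TAN relative to adipocyte markers (0.98, adjusted p = 0.00141 with libraries scaled to those markers) and without the 10 libraries lacking lymphocyte RNA (0.96, adjusted p = 0.00226, with 1 TAN library left at 4 PM). Without the 17 libraries with muscle RNA, which leaves 1 TAN library at 12 PM and takes its spread from the other groups, the difference over the day was 0.80 with an adjusted p of 0.0607. Of the 4 TAN libraries at 12 PM, the 3 with muscle marker sums of 1894, 392 and 217 CPM were those at 96.4, 113 and 125 CPM of Cidea, and the one at 39.97 CPM had a muscle sum of 29.9 CPM. With the muscle marker level as a covariate over all 48 libraries, the day difference was 1.19 (adjusted p = 1.8e-05).

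At 4 PM the marker levels differed between the diets. Adipocyte marker sums were 18230 to 26160 CPM in ad-lib and 40190 to 67750 CPM in TAN without overlap. All 10 adipocyte markers had positive fitted differences (median 0.97), against 9247 of all 19977 tested genes (median −0.09). Lymphocyte marker sums were 1081 to 1890 CPM in ad-lib and 10.9, 22.7, 37.1 and 385 CPM in TAN. Scaled to adipocyte markers, the 4 PM difference of Cidea was 0.76 (adjusted p = 0.177). With the lymphocyte or the adipocyte marker level as a covariate it was 1.50 (adjusted p = 0.217) or 1.31 (adjusted p = 0.158). The part of cell makeup in the 4 PM differences cannot be told apart from that of TAN feeding.

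Elovl3 (chr19:46131897-46135307, plus strand), a fatty acid elongase induced in brown fat by cold, was low throughout but was found in 23 of 24 TAN libraries against 11 of 24 ad-lib libraries. At 4 PM it had 0, 0, 0 and 1 counts in ad-lib and 47, 5, 29 and 18 counts in TAN. That was 0.00934 against 1.37 CPM on average, with a summed count ratio of 120 (95% counting interval 21.1 to 4790), and the edgeR test called it (adjusted p = 0.0237). The call was lost with the lymphocyte or the adipocyte marker covariate, with the replicate block, and without ad-lib replicate 1 or 3 or TAN replicate 1. The exact permutation test of CPM gave p = 0.0286 there and at 12 AM (two-sided), the smallest that 4 against 4 libraries allow. At 12 AM it was at 0.977, 0.150, 0.0613 and 0 CPM in ad-lib and at 1.02, 2.13, 1.29 and 3.25 CPM in TAN, again without overlap. Every TAN library was above every ad-lib library for 3.59% of all genes at 12 AM and 12.8% at 4 PM. At 12 PM both diets were spread widely, with 0.432, 0.816, 2.52 and 0 CPM in ad-lib and 4.80, 0.759, 0.0728 and 0.721 CPM in TAN.

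At the other 3 times Elovl3 was likewise near 0 in ad-lib. At 8 AM it had 0, 6, 0 and 0 counts in ad-lib and 30, 2, 3 and 12 in TAN. At 8 PM it had 0, 0, 0 and 10 counts in ad-lib and 33, 0, 23 and 1 in TAN. At 4 AM it had 0, 0, 4 and 3 counts in ad-lib and 13, 3, 32 and 35 in TAN. Over the day the mean was 0.252 ± 0.552 CPM in ad-lib and 1.22 ± 1.17 CPM in TAN (SD, n = 24 each), 4.82 times higher, and 19 of 24 TAN libraries were above the ad-lib mean of their time. The edgeR test over the day called it (3.17 ± 0.64, log2, SE, adjusted p = 0.00254), and the permutation within times gave p = 0.00023 (two-sided, 100000 draws). The fitted size, 9.0 times, takes in the 4 PM groups, where ad-lib held 1 count. It therefore depends on the small prior count that the fit itself adds. Without libraries with muscle RNA the day test gave an adjusted p of 0.0551.

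Cox8b (chr7:140898945-140900446, minus strand) and Cox7a1 (chr7:30184144-30186078, plus strand), tissue forms of cytochrome c oxidase subunits, differed in how they varied. Cox8b stood at 38.6, 66.7, 20.8 and 31.4 CPM in ad-lib and 50.3, 51.6, 117 and 97.2 CPM in TAN at 4 PM. At 12 PM it was at 32.1, 34.0, 42.8 and 41.6 CPM in ad-lib and 81.6, 83.4, 36.0 and 96.0 CPM in TAN. At 12 AM it was at 75.8, 53.5, 36.2 and 28.6 CPM in ad-lib and 21.0, 119, 90.0 and 103 CPM in TAN, so that 3 TAN libraries were above all ad-lib libraries and the fourth was below them. At 8 AM, 8 PM and 4 AM the diets overlapped broadly, with group means of 43.2 to 68.1 CPM in ad-lib and 55.1 to 61.4 CPM in TAN.

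Over the day Cox8b was at 48.3 ± 23.2 CPM in ad-lib and 68.9 ± 26.4 CPM in TAN (SD, n = 24 each), and 17 of 24 TAN libraries were above the ad-lib mean of their time. The fitted difference was 0.53 ± 0.18 (log2, SE) with an adjusted p of 0.0702, so it did not pass. Without the 2 TAN libraries at 8 PM that were low in adipocyte RNA it passed (0.58, adjusted p = 0.0349), as it did with DESeq2 (0.53, adjusted p = 0.0376), and relative to adipocyte markers it was 0.32 (adjusted p = 0.238).

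Cox7a1 was called at 4 PM. It stood there at 1.99, 2.71, 1.60 and 0.598 CPM in ad-lib and at 9.10, 10.5, 5.37 and 12.2 CPM in TAN, a difference of 2.43 ± 0.72 (log2, SE) with an adjusted p of 0.0236 and no overlap between the diets. For 12.8% of all tested genes, every TAN library was above every ad-lib library at 4 PM. The TAN library with the lowest value, 5.37 CPM, was the one that still held lymphocyte RNA (a marker sum of 385 CPM). With the lymphocyte marker level as a covariate the difference was 1.09 (adjusted p = 0.476), and scaled to adipocyte markers it was 1.43 (adjusted p = 0.0885). The call was also lost with the adipocyte marker covariate, with the replicate block, and without ad-lib replicate 3 or 4 or TAN replicate 1. Muscle marker sums at 4 PM were 5.02 to 25.2 CPM in both diets.

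At 12 AM, Cox7a1 was at 2.66, 2.85, 3.04 and 1.41 CPM in ad-lib and 1.36, 10.4, 7.50 and 8.44 CPM in TAN (1.47 ± 0.69, adjusted p = 0.263). At 4 AM the order of the means turned, with 1.72, 6.12, 18.2 and 7.84 CPM in ad-lib and 5.40, 5.33, 4.50 and 3.93 CPM in TAN. The ad-lib library at 18.2 CPM, replicate 3, also had the highest muscle marker sum, 7847 CPM. At 8 PM it was at 3.41, 2.04, 2.002 and 3.43 CPM in ad-lib and at 0, 1.96, 5.35 and 5.18 CPM in TAN, the lower values being those of TAN replicates 1 and 2. Over the day it was 0.65 ± 0.28 higher in TAN (adjusted p = 0.158), and 0.78 (adjusted p = 0.022) without those 2 libraries. The test of unequal TAN effects across times gave an adjusted p of 0.113, the lowest of the 10 members.

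Ppargc1a (chr5:51454250-51567726, minus strand), the coactivator of mitochondrial genes, was the 1 member called lower in TAN at any time. At 8 PM it was at 6.25, 8.52, 12.4 and 25.0 CPM in ad-lib and at 1.42, 2.25, 4.97 and 9.01 CPM in TAN (13.0 ± 8.35 and 4.41 ± 3.42 CPM, SD, n = 4 each), and the diets overlapped. The difference was −1.56 ± 0.49 (log2, SE) with an adjusted p of 0.0341. The TAN libraries at 1.42 and 2.25 CPM were replicates 1 and 2, and without them the difference was −0.90 (adjusted p = 0.277). Without ad-lib replicate 4, the library at 25.0 CPM, it was −1.04 (adjusted p = 0.171). With the adipocyte or the lymphocyte marker covariate it was −1.70 (adjusted p = 0.00617) or −1.82 (adjusted p = 0.00553), and scaled to adipocyte markers −1.64 (adjusted p = 0.0461). Endothelial marker sums at 8 PM were 379 to 557 CPM in ad-lib and 157 to 312 CPM in TAN without overlap, and their part in the result was not tested. At the other times the group means were 10.8 to 17.6 CPM in ad-lib and 9.75 to 15.96 CPM in TAN. Over the day it was at 14.4 ± 6.06 CPM in ad-lib and 11.9 ± 6.15 CPM in TAN, a difference of −0.37 ± 0.20 with an adjusted p of 0.259. Relative to adipocyte markers the day difference was −0.65 (adjusted p = 0.0376). It was also the 1 member that varied over the day in TAN (adjusted p = 0.0439), a call that was lost without TAN replicates 1 and 2 at 8 PM, and in ad-lib it gave an adjusted p of 1.

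Prdm16 (chr4:154316125-154636873, minus strand), the zinc finger regulator that sets brown and beige fate, was measured in all 48 libraries and showed no difference that passed. Ad-lib libraries spanned 2.53 to 16.5 CPM with a mean of 9.41 ± 4.09, and TAN libraries 2.33 to 15.4 CPM with 8.78 ± 3.21 (SD, n = 24 each). The difference over the day was −0.09 ± 0.18 (log2, SE, adjusted p = 0.838), and 10 of 24 TAN libraries were above the ad-lib mean of their time. At 4 PM it was at 12.6, 13.2, 8.29 and 15.2 CPM in ad-lib and 6.59, 12.6, 4.35 and 14.3 CPM in TAN, which passed only when libraries were scaled to adipocyte markers (−1.35, adjusted p = 0.0346).

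Dio2 (chr12:90724552-90738438, minus strand) was at 1.22 ± 0.857 CPM in ad-lib and 1.10 ± 1.01 CPM in TAN over the day, with a difference of −0.33 ± 0.45 (log2, SE, adjusted p = 0.717). It was found in all 24 ad-lib libraries (2 to 70 counts) and at 0 in 4 TAN libraries, 2 at 4 PM and 2 at 8 PM. At 4 PM the TAN libraries had 0, 4, 0 and 48 counts, and those in ad-lib 27, 7, 19 and 46.

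Pm20d1 (chr1:131797381-131821473, plus strand) was at 4.00 ± 1.54 CPM in ad-lib and 5.37 ± 2.95 CPM in TAN over the day (0.37 ± 0.30, adjusted p = 0.51). At 4 PM it was at 4.94, 4.28, 1.52 and 2.76 CPM in ad-lib and 6.04, 8.43, 4.58 and 11.6 CPM in TAN. At 8 PM it was at 2.50, 3.85, 4.05 and 4.78 CPM in ad-lib, and at 0, 0, 4.97 and 5.86 CPM in TAN. The 2 libraries at 0 were TAN replicates 1 and 2, which were low in adipocyte RNA, and the other 2 were above all ad-lib libraries.

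Otop1 (chr5:38275972-38304217, plus strand) was at 8.98 ± 5.73 CPM in ad-lib and 9.99 ± 5.75 CPM in TAN over the day (0.14 ± 0.29, adjusted p = 0.836). At 4 PM it was at 4.71, 9.79, 3.21 and 9.15 CPM in ad-lib and 13.5, 14.2, 20.4 and 27.5 CPM in TAN, without overlap (1.49 ± 0.72, unadjusted p = 0.0437, adjusted p = 0.138). Every TAN library was above every ad-lib library for 12.8% of all tested genes at that time. At 4 AM ad-lib libraries were at 5.41, 23.9, 16.2 and 18.8 CPM and TAN libraries at 10.3, 8.95, 9.50 and 5.50 CPM, so the means stood in the opposite order. The test of unequal TAN effects across times gave an adjusted p of 0.327.

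**Figure D2:**
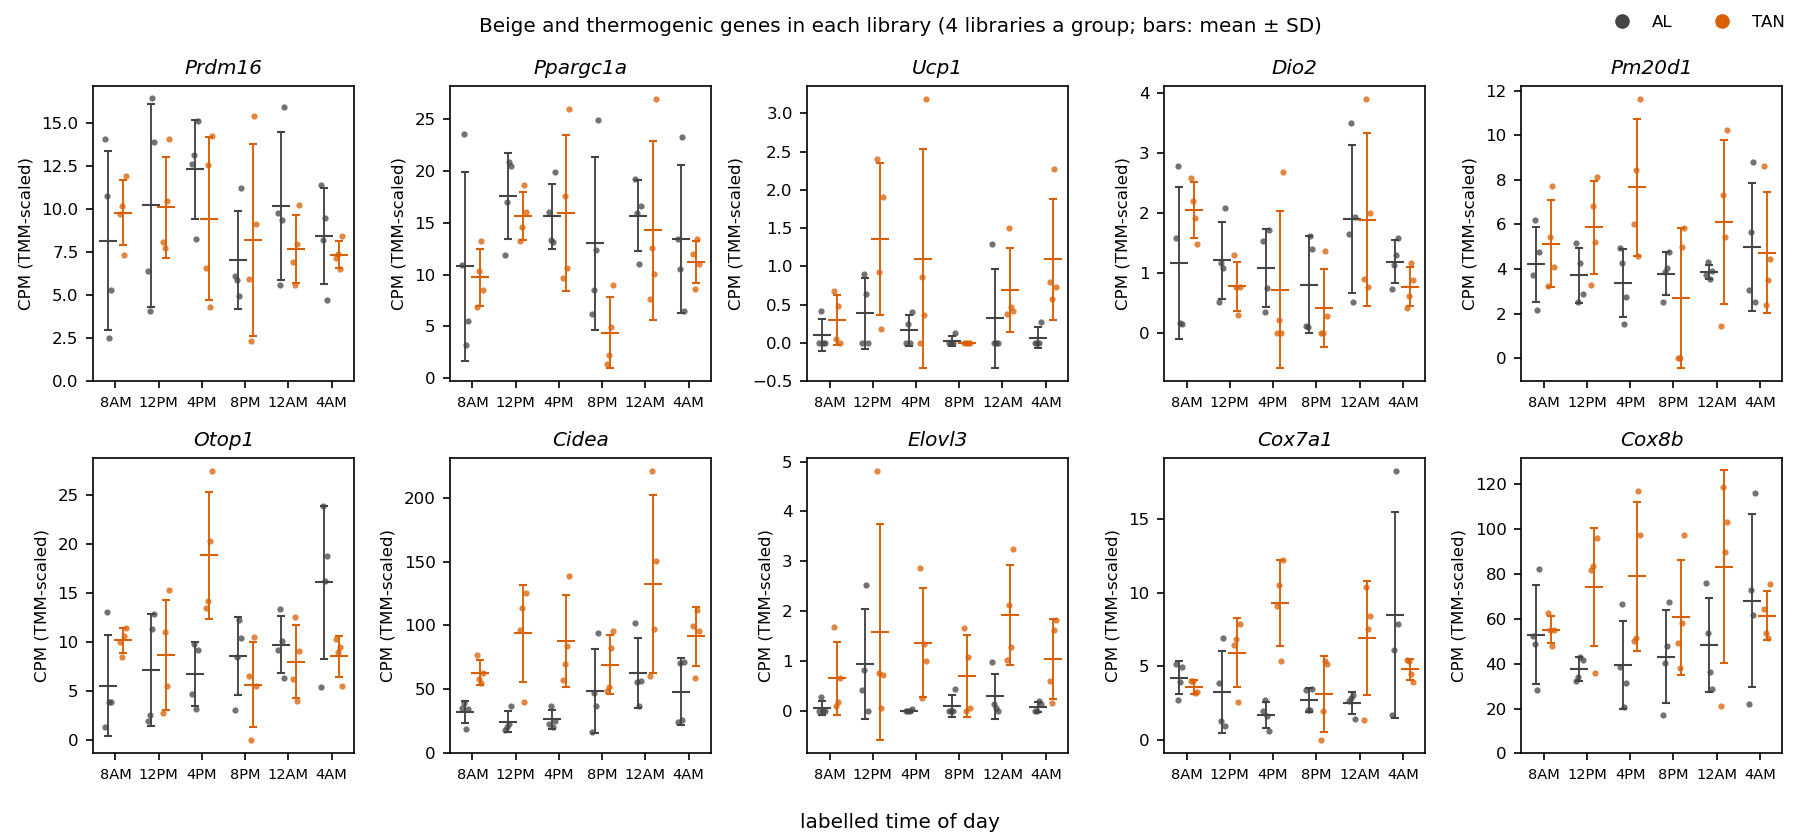
Level of each member in CPM by labelled time of day, with 1 point per library and the mean ± SD of 4 libraries, for ad-lib (grey) and TAN (orange). All 4 TAN libraries lie above the ad-lib libraries for Cidea at 8 AM, 12 PM and 4 PM and for Cox7a1 at 4 PM, and Ucp1 lies at 0 in all 4 TAN libraries at 8 PM. Such separation was seen in 2.03%, 3.30% and 12.8% of all tested genes at 8 AM, 12 PM and 4 PM.

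By comparison, 2 of 10 members rose over the day in TAN (Cidea and Elovl3) and 0 fell, beside 2.68% of all 19977 genes called higher and 2.74% called lower (5.42% in either direction). At 4 PM, 3 rose (Cidea, Cox7a1 and Elovl3) and 0 fell, beside 2.93% higher and 7.43% lower of all genes. At 8 PM, 1 fell (Ppargc1a) and 0 rose, beside 5.84% lower and 1.19% higher. No member passed at 8 AM, 12 PM, 12 AM or 4 AM, where 0.015%, 0.0901%, 0.135% and 0% of all genes were called in either direction, and 6.58%, 7.37%, 17.5% and 2.64% had an unadjusted p under 0.05. Members with an unadjusted p under 0.05 numbered 1, 2, 2 and 3 at these times. DESeq2 called 1 member at 12 PM (Cidea) and 0 at the others, and limma voom called 0 at all 4. The median fitted difference of the 10 members was 0.45 over the day, 1.34 at 4 PM and −0.15 at 8 PM, beside −0.08, −0.09 and −0.10 over all tested genes. By edgeR, the TAN effect differed between times for 0 members (8.98% of all genes), with 1 at an unadjusted p under 0.05 and 1 called by DESeq2 (Cox7a1) and by limma voom (Pm20d1). The level varied over the day in ad-lib for 0 members (0.0551% of all genes), with 3 at an unadjusted p under 0.05 and 0 called by DESeq2 or limma voom. In TAN it varied for 1 (23% of all genes), with 1 called by DESeq2 and 5 by limma voom. The comparisons at the 6 times are parts of the one over the day and are not independent of it. The members and the lists below were chosen with earlier results of these data known. Their counts beside all genes are therefore descriptions and no test of these sets.

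**Figure D3:**
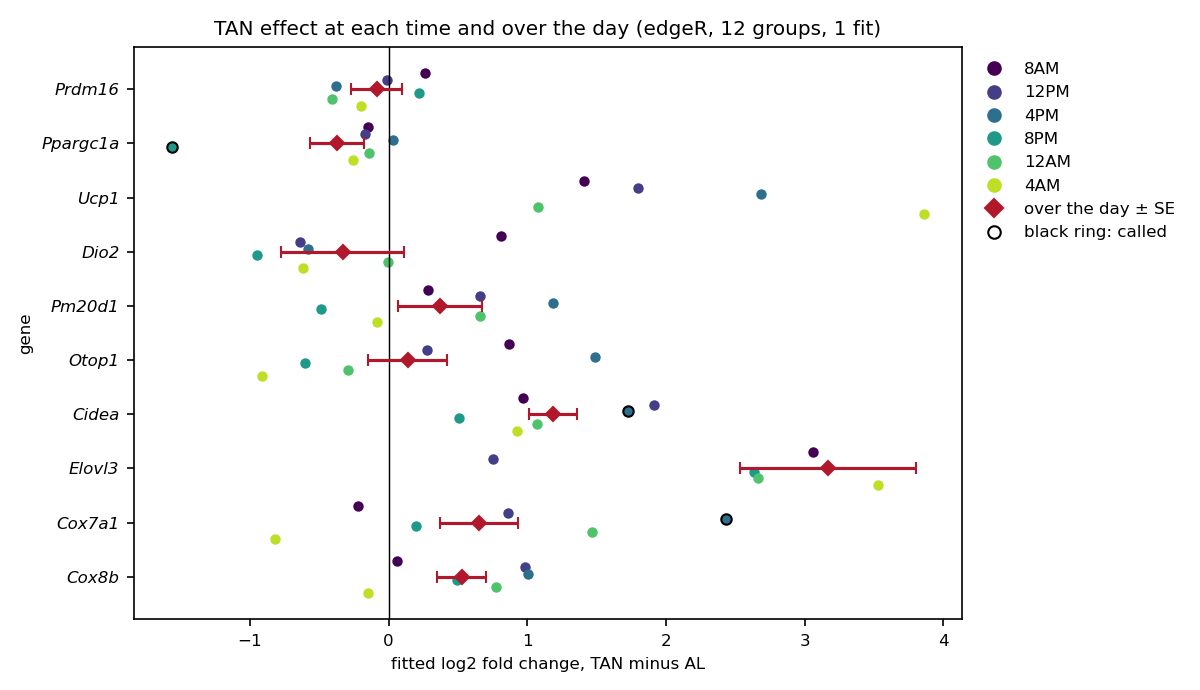
Fitted log2 difference (TAN minus ad-lib, horizontal axis) of each member (vertical axis) at 6 times (coloured points) and over the day (red diamonds with SE), with called values at a time ringed in black; values from groups at the floor and the day value of Ucp1 are left out. Cidea lies above 0 at all 6 times with a day value of 1.19, and Ppargc1a at 8 PM lies at −1.56.

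Of the near relatives, 1 of 14 tested rose over the day, Cox7a2 (0.46 ± 0.12, adjusted p = 0.0175), the widely expressed partner form of Cox7a1, and 0 fell. Of all tested genes, 2.68% were called higher and 2.74% lower over the day. At 4 PM, 3 rose, Cox7a2 (1.295), Cox8a (1.06) and Cox6a1 (1.04), all of them cytochrome c oxidase subunits of general use, and 2 fell, Ucp2 (−1.71) and Pprc1 (−1.84). Of all tested genes, 2.93% were called higher and 7.43% lower at 4 PM. Ucp3 (0.44, adjusted p = 0.154 over the day) and Cidec (0.24, adjusted p = 0.469) did not pass. Adipocyte markers stood higher and lymphocyte markers lower in TAN at that time. Cox6a2, the muscle form of Cox6a1, was at 0.825 CPM in ad-lib and 0.0140 CPM in TAN at 4 PM, with 3 of 4 TAN libraries at 0.

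A further list of 30 brown and beige fat genes was set beside the members, of which 26 were tested. Over the day 4 rose and 0 fell, beside 2.68% and 2.74% of all genes: Aspg, an asparaginase (0.462 against 3.31 CPM, 3.05 ± 0.44, adjusted p = 1.36e-05), Kcnk3, a potassium channel of brown fat (10.1 against 20.1 CPM, 1.05 ± 0.21, adjusted p = 0.00286), P2rx5, an ATP-gated channel used as a surface marker of brown and beige fat (7.49 against 14.9 CPM, 0.93 ± 0.18, adjusted p = 0.00129) and Letmd1, a mitochondrial protein (54.2 against 67.6 CPM, 0.30 ± 0.07, adjusted p = 0.0119). Of the 26, 14 had a positive fitted difference over the day, against 7845 of 19977 tested genes. The median of the list was 0.10 over the day and −0.29 at 8 PM. P2rx5 was also called at 12 PM (2.11 ± 0.45, adjusted p = 0.0339), a time at which 0.0851% of all genes were called higher. At 4 PM, 1 gene of the list was called higher and 1 lower, beside 2.93% and 7.43% of all genes. Among 18 genes of beta-adrenergic signalling, 1 rose over the day, beside 2.68% of all genes, Prkaca, a catalytic subunit of protein kinase A (0.49 ± 0.13, adjusted p = 0.0175). Of these 18, 1 was called higher and 1 lower at 4 PM, beside 2.93% and 7.43% of all genes. The beta-3 receptor gene Adrb3 was at 281 CPM in ad-lib and 268 CPM in TAN (−0.07 ± 0.17, adjusted p = 0.854).

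Of 20 regulators of the brown fat program, 2 rose over the day (2.68% of all genes), Esrra, an orphan receptor that acts with Ppargc1a (33.6 against 48.8 CPM, 0.55 ± 0.13, adjusted p = 0.0133), and its relative Esrrb, which was barely detected (0.113 against 0.256 CPM, adjusted p = 0.0412). Pparg, the master regulator of fat cells, was at 288 and 294 CPM (0.01 ± 0.19, adjusted p = 1). At 8 PM, named after their values were seen, 3 regulators fell, Nrip1 (−1.15), Thrb (−1.62) and Klf11 (−1.11), and 1 rose, Hlx (1.05), beside 5.84% of all genes lower and 1.19% higher. At 8 PM lower values were also called for 2 of 6 endothelial, 1 of 8 macrophage and 1 of 8 stromal markers, and their part in the 8 PM results was not tested.

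Within groups, several members varied together from library to library. After the mean of each group was subtracted from log2 CPM, 45 pairs of members and 20 pairs of a member with adipocyte or muscle markers were tested over 48 libraries, with p-values adjusted over these 65. Of the 45 pairs of members, 16 passed by Pearson's r and by Spearman's rho, all of them positive. No such count was made for pairs of other genes, and Gpx8, outside the set, reached r = 0.779 with Cidea. The 16 therefore cannot be read as particular to the set. The closest pair was Cidea and Cox8b (r = 0.807, rho = 0.785, permutation p = 1e-05 for each, the smallest the 100000 draws can give, adjusted p = 0.000325 and 0.00065; r = 0.78 without the 2 libraries farthest from the median of Cidea). Dio2 and Ppargc1a followed (r = 0.673, rho = 0.674, permutation p = 0.00024 and 0.00013, adjusted p = 0.0026 and 0.00247; r = 0.667 without 2 libraries), and Ppargc1a was also close to Pm20d1 (r = 0.667, rho = 0.631, permutation p = 1e-05 and 0.00019, adjusted p = 0.000325 and 0.00247; r = 0.69 without 2 libraries). For Ppargc1a and Prdm16 the values were r = 0.621 and rho = 0.671 (permutation p = 0.00092 and 0.0001, adjusted p = 0.00747 and 0.00247; r = 0.558 without 2 libraries).

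Ucp1, despite its few counts, followed Cidea (r = 0.513, rho = 0.498, permutation p = 0.00028 and 0.00047, adjusted p = 0.0026 and 0.00339; r = 0.442 without 2 libraries) and Elovl3 (r = 0.46, rho = 0.479, permutation p = 0.00482 and 0.00155, adjusted p = 0.0224 and 0.0084; r = 0.435 without 2 libraries). Its r with adipocyte markers was −0.03 (rho = 0.01, permutation p = 0.809 and 0.949). Pm20d1 was the member closest to adipocyte markers (r = 0.788, rho = 0.644, permutation p = 6e-05 and 0.00025, adjusted p = 0.0013 and 0.00271; r = 0.71 without 2 libraries), and r was 0.532 without the TAN group at 8 PM. Cox8b (r = 0.512, rho = 0.5, permutation p = 9e-05 and 0.00101, adjusted p = 0.00146 and 0.00597; r = 0.495 without 2 libraries) and Cox7a1 (r = 0.56, rho = 0.538, permutation p = 0.0144 and 0.00086, adjusted p = 0.0407 and 0.00559; r = 0.507 without 2 libraries) also followed adipocyte markers. Cox7a1 was the 1 member that followed muscle markers by both measures (r = 0.444, rho = 0.394, permutation p = 0.00742 and 0.0131, adjusted p = 0.0254 and 0.0427; r = 0.46 without 2 libraries).

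**Figure D4:**
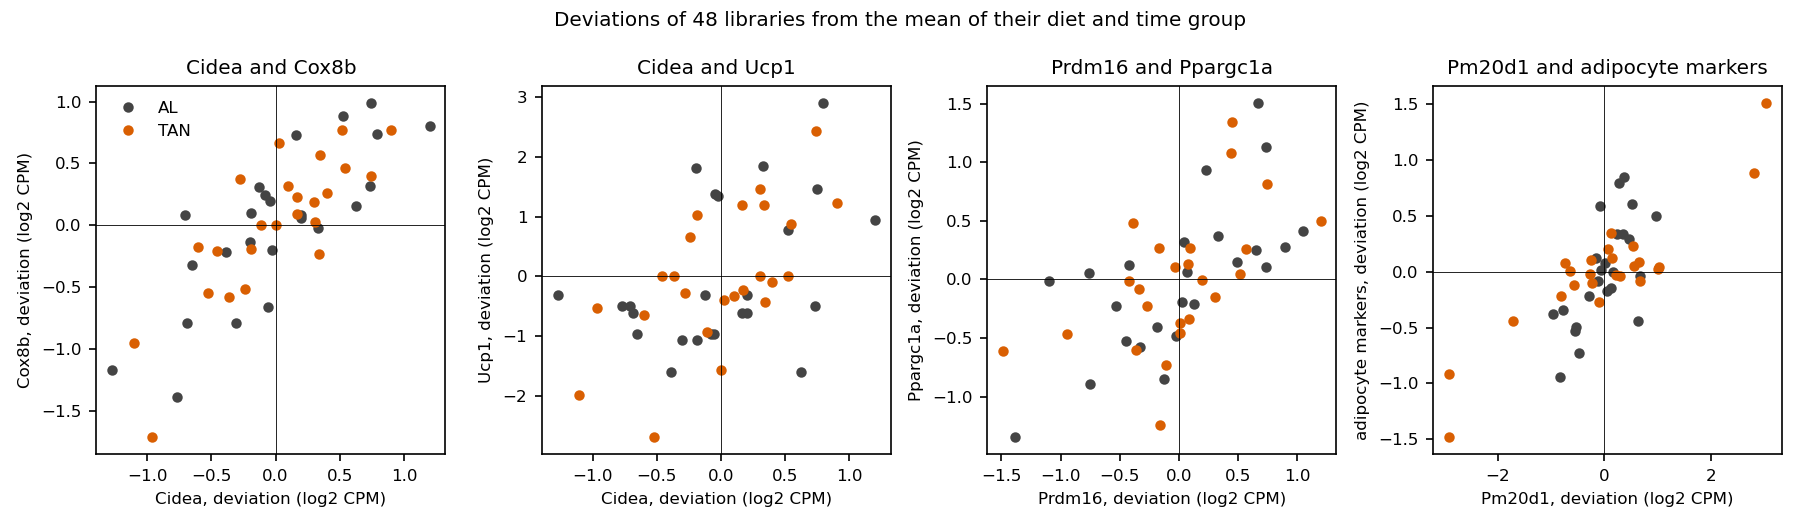
Deviations of 48 libraries from the mean of their group (log2 CPM, both axes), ad-lib in grey and TAN in orange, for Cidea with Cox8b (r = 0.807), Cidea with Ucp1 (r = 0.513), Prdm16 with Ppargc1a (r = 0.621) and Pm20d1 with the mean of the adipocyte markers (r = 0.788). The points farthest out in the last panel are the 4 TAN libraries at 8 PM.

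The genes outside the set whose deviations were most like those of a member were named from 14755 genes with a mean of at least 1 CPM, by a rule written for Ucp1 and applied to Cidea after its values were seen. For Cidea, the 10 most alike were Gpx8 (r = 0.779 over 48 libraries), Entpd5 (0.727), Samm50, Clstn3, Chchd10, Dlat, Fdft1, Pank1, P2rx5 and Stard7 (0.676). Of these, Chchd10 (1.3, adjusted p = 1.55e-08), P2rx5, Dlat, Gpx8, Fdft1 and Samm50 were higher in TAN over the day by the edgeR test, beside 2.68% of all tested genes. For Ucp1 the likeness was weaker, from Slc19a2 and Gm8494 (r = 0.533 each) through Impa2, Kcnj2, Tsku, Gart, Stard7, Traf4 and Gm2004 to Hoxb6 (0.476). These correlations are descriptions over libraries that share a composition, and in counts as low as those of Ucp1 they rest on few reads.

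**Figure D5:**
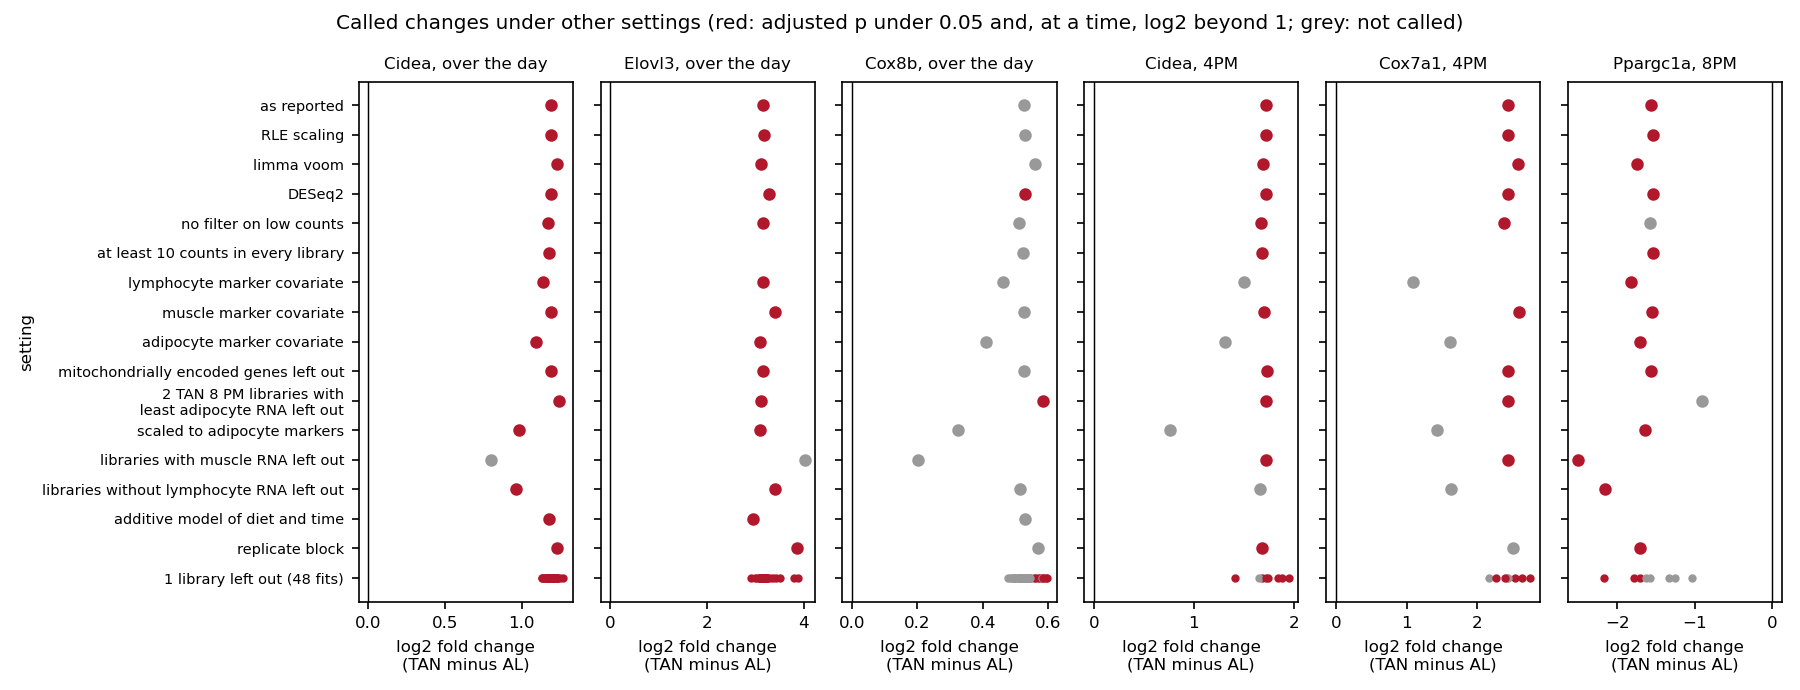
Fitted log2 difference (horizontal axis) of the 4 members with a called change and of Cox8b under each other setting (vertical axis), with the 48 fits that leave out 1 library in the bottom row; red marks values that passed. Cidea over the day stays between 0.80 and 1.27, and its 4 PM value falls from 1.72 to 0.76 when libraries are scaled to adipocyte markers.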

How the data were processed

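RNA-seq of inguinal white fat from 48 samples (24 ad-lib, 24 TAN) was analysed from the gene counts deposited by the authors, which are raw counts with no normalization, and each gene's length as they give it. The authors' FPKM values, means of each group, were used only to check the group labels. The labels' processing notes name TopHat 1.3.3, DESeq2 1.20.0, limma and edgeR and the builds mm9, mm10 and GRCm38, with no role given, and the strand setting of the counting is not given in the sources used here. The members and lists were chosen with earlier results of these data known. All members and the tested paralogs could be named, up to 4 genes of each other list called over the day, and the 10 genes most like Ucp1.

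Genes passing edgeR's filter (minimum count 10) were fitted with 12 groups by edgeR 4.0.16 (TMM, robust quasi-likelihood, R 4.3.3). A call at a time required an adjusted p under 0.05 and a log2 difference beyond 1, and other calls an adjusted p under 0.05. The SE is the absolute log2 difference over the root of F. Log2 CPM used a prior count of 2, and the fit used edgeR's default prior count. A group with at most 3 counts in each library was taken as at the floor and given no fitted fold at that time. Intervals and floors cover counting error only. Alternatives used limma 3.58.1 and DESeq2 1.42.0, and settings named for markers or left-out libraries were added after the data were seen, apart from the marker covariates. The fit was tested on simulated counts. Of 100 genes with a log2 change of 2 at 4 PM, it recovered 46%, with 1 false call. Of 100 genes with a log2 change of 1 over the day, it recovered 58%, with 11 false calls. The simulated libraries differed only in size, in these changes and by independent spread, with no differences in cell makeup. These shares therefore do not cover the differences in cell makeup of the real libraries. Of 1128 pairs of libraries 0 were identical.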

Additional observations from a re-analysis of the deposited data

Results flagged for a closer look

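Among 119 groups of 4 libraries in which a member had some counts, 12 had 1 library standing far from the other 3. The cutoff would flag about 1 in 20 groups of values with a normal spread. Where the other 3 libraries are at 0, any count in the remaining one is flagged, so the 12 cannot be set against that share. All 12 were in the members with few counts. For Ucp1 they were ad-lib replicate 2 at 8 AM (0.425 CPM, 9 counts), ad-lib replicate 1 at 12 AM (1.29 CPM, 33 counts), ad-lib replicate 4 at 4 AM (0.272 CPM, 6 counts), ad-lib replicate 4 at 8 PM (0.13 CPM, 3 counts), TAN replicate 2 at 12 AM (1.51 CPM, 24 counts) and TAN replicate 3 at 4 AM (2.27 CPM, 45 counts). In these 4 ad-lib groups the other libraries were at 0. For Elovl3 they were ad-lib replicate 2 at 8 AM (0.283 CPM), ad-lib replicate 4 at 8 PM (0.435 CPM), ad-lib replicate 4 at 4 PM (0.0374 CPM, 1 count), ad-lib replicate 1 at 12 AM (0.977 CPM) and TAN replicate 1 at 12 PM (4.8 CPM, 104 counts). For Dio2 it was TAN replicate 4 at 4 PM (2.68 CPM, 48 counts). Ad-lib replicate 2 at 8 AM, replicate 4 at 8 PM and replicate 1 at 12 AM stood out for both Ucp1 and Elovl3. Their Cidea was at 39.2, 94.0 and 102 CPM, the highest ad-lib value of each time. The Ucp1 library at 8 PM and the Elovl3 library at 4 PM were within the 3 counts that a library at 0 allows.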

How the results depend on the processing

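Counts of called members moved as follows. At 12 PM the count of 0 became 1 (Cidea) with DESeq2, with at least 10 counts in every library (4 members tested) and with the lymphocyte or adipocyte marker covariate. At 4 PM the count of 3 became 0 with either covariate and without the libraries lacking lymphocyte RNA (1 TAN library left at 4 PM), 2 (Elovl3, and Prdm16 lower) with scaling to adipocyte markers, and 1 (Cidea) with the replicate block and with at least 10 counts in every library. With separate fits it was 3, with Otop1 (1.44, adjusted p = 0.0203) and no Elovl3. At 8 PM the count of 1 became 2 (adding Pm20d1) with limma voom, with the adipocyte covariate and without the libraries with muscle RNA, where TAN keeps only replicates 1 and 2, the libraries low in adipocyte RNA. It became 0 with no filter, with separate fits per time (7 members tested) and without the 2 TAN 8 PM libraries low in adipocyte RNA. Over the day the count of 2 became 1 with at least 10 counts in every library, 4 without those 2 libraries (adding Cox7a1 and Cox8b) and 0 without the libraries with muscle RNA (1 TAN library left at 12 PM). It became 3 with limma voom (adding Ucp1), with DESeq2 (adding Cox8b), and with scaling to adipocyte markers and without the libraries lacking lymphocyte RNA (both adding Ppargc1a, lower). The unequal TAN effect between times went from 0 to 1 with limma voom, with DESeq2, without those 2 libraries and without the libraries with muscle RNA. Variation over the day in TAN went from 1 to 5 with limma voom, to 2 without the libraries with muscle RNA, and to 0 with no filter, with the adipocyte covariate, without those 2 libraries and with scaling to adipocyte markers. Settings that leave out libraries fit fewer samples, and the other causes were not tested.

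Leaving out 1 library at a time gave 0 to 1 calls at 12 PM (1 without TAN replicate 3), 0 to 4 at 4 PM (0 without ad-lib replicate 3, 1 without TAN replicate 1) and 0 to 1 at 8 PM (0 without ad-lib replicate 3 or TAN replicates 1, 2 or 3, and Elovl3 in place of Ppargc1a without ad-lib replicate 4). It gave 2 to 3 over the day, 0 to 1 for unequal effects (1 without TAN replicate 1 at 8 PM), 0 to 1 for variation in TAN (0 in 20 of 48 fits), and 0 at 8 AM, 12 AM and 4 AM and for variation in ad-lib. The sign turned for Pm20d1 over the day with limma voom (−0.16), the adipocyte covariate (−0.28), adipocyte scaling (−0.0312) and without libraries with muscle RNA (−1.11), for Otop1 with limma voom (−0.0505) and adipocyte scaling (−0.15), and for Prdm16 without the 2 TAN libraries (0.0086), none of which had passed. Whether replicate numbers pair the samples could not be settled. Of 24 same-numbered pairs, 11 had r over 0.1 (range −0.54 to 0.75), and 7 ad-lib libraries were closest to the TAN library of their number. Such r also carries cell makeup, so it cannot exclude a shared cage or batch. With the replicate block Cidea was 1.68 at 4 PM (adjusted p = 0.0265) and 1.23 over the day (adjusted p = 0.000229), and the calls of Cox7a1 and Elovl3 at 4 PM were lost. Ucp1 and Elovl3 are limited by depth, with 22 and 14 of 48 libraries at 0.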
